A study of Rattus norvegicus with 70 samples.

Results

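Among 70 RNA-seq libraries of 3 fat depots of Sprague-Dawley rats, 12 came from the subcutaneous depot (SAT) of the odd-numbered rats, which the labels give as male. These 12 were split by the share of reads on Csn1s1, the gene of alpha-S1 casein. A library was called high at 100000 or more Csn1s1 CPM (counts scaled to a common library total), and low under 10000 CPM. The rule gave 3 high libraries (SAT_1, SAT_11 and SAT_17) and 4 low ones (SAT_3, SAT_9, SAT_15 and SAT_21). Another 4 libraries (SAT_5, SAT_7, SAT_13 and SAT_23) lay between the thresholds and entered no comparison of the classes. SAT_19 was set aside and is described below.

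All rats arrived at 28 days of age and acclimated for 8 days. Males began exposure at 39 days of age and females at 42. The exposed group inhaled the polychlorinated biphenyl PCB 52 nose-only for 4 hours a day over 28 days, in filtered air led at 12 L/min over coated glass beads, and the other group is labelled sham. The high libraries were 2 sham rats and 1 PCB 52 rat, and the low ones 2 sham and 2 PCB 52 rats. The 11 SAT libraries of even-numbered rats, labelled female (5 sham and 6 PCB 52), did not enter the rule and served for the tests. Each title number was read as 1 rat, so that p-values measure the spread between these libraries. The labels do not state the position of the sampled subcutaneous fat, nor an oestrous stage.

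The rat mammary gland lies inside subcutaneous fat, so that a piece of this depot can hold gland and adipose tissue together. The gland is built of luminal cells, which turn on caseins and other milk proteins under prolactin and its transcription factor STAT5, and of an outer basal layer of contractile myoepithelial cells. Male rats keep a gland with secretory-type lobules after puberty. In bulk extracts, fewer cells of a type and less RNA per cell cannot be told apart.

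The label of the classes was checked against the markers of mammary epithelium. Elf5, the luminal alveolar transcription factor, stood at 579.6, 395 and 588 CPM in SAT_1, SAT_11 and SAT_17. It stood at 8.01, 1.21, 6.82 and 0.134 CPM in SAT_3, SAT_9, SAT_15 and SAT_21. Krt18, a keratin of luminal cells, had no count in SAT_9 and SAT_21, and Epcam, a surface protein of epithelia, had 0 and 0.268 CPM there. Adipoq, the adipocyte hormone adiponectin, was present in all 7 libraries at 406 to 5928 CPM. Not every marker was near 0 in SAT_9 and SAT_21. The luminal keratin Krt8 had 8.89 and 11.8 CPM there, against 24.9 and 23.9 CPM in SAT_3 and SAT_15. Oxtr, the oxytocin receptor of myoepithelium and of adipocytes, had 911 and 1155 CPM in SAT_9 and SAT_21. The low class therefore held 2 libraries with caseins, Elf5, Krt18 and Epcam at or near 0. The other 2, SAT_3 and SAT_15, had Csn1s1 at 1378 and 711 CPM and low levels of these epithelial genes.

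Some libraries stood apart before any comparison. SAT_19 had 1633 Csn1s1 CPM, which the rule would call low. On plain totals it also had 51789 CPM of Mup4 and 2163 CPM of the basal keratin Krt14. The other odd-numbered libraries had at most 72.1 and 24.2 CPM. SAT_11, a high library, carried lymphocyte genes, with 45.8 CPM of Cd3e and 60.1 CPM of Ms4a1 on plain totals. The low libraries other than SAT_21 carried skeletal muscle genes, with Acta1 at 3086, 2346 and 1406 CPM in SAT_3, SAT_9 and SAT_15 against 81.8 to 417 CPM in the high class and 6.97 CPM in SAT_21. Among the even-numbered libraries, ribosomal protein genes made up 27.5% of SAT_8. In SAT_8, 262 of 8299 genes that reached 10 CPM in each of the other 10 had no count, against none of 6637 to 6687 genes when any other library was the one examined. The odd-numbered libraries held 6506450 to 7943640 counts each. The labelled sex fitted the data. The Y-linked Ddx3y reached at least 65.9 CPM on plain totals in the high, low and between libraries and had no count in any even-numbered one.

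The thresholds fell in gaps of the Csn1s1 values. On plain column totals, the high libraries had 205879, 180885 and 213614 CPM, and the next highest, SAT_7, had 75723 CPM. The highest low library, SAT_3, had 1378 CPM, and the lowest of those between, SAT_23, had 21358 CPM. Milk protein genes together took 21.02 to 25.5% of all counts in the high libraries and 0.0193 to 0.192% in the low ones.

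Caseins lie in a cluster on chromosome 14, and the bases before 5 of their starts are shown because the genes differed together and STAT5 is known to act close to casein starts. The following are 250 bases upstream of the RefSeq start on build GRCr8, 5′ to 3′ on the strand of the gene, with matches to TTCNNNGAA in capitals. The positions are chr14:20638850-20639099, minus strand for Csn1s1, chr14:20574472-20574721, minus strand for Csn1s2a, chr14:20545619-20545868, minus strand for Csn1s2b, chr14:20601574-20601823, plus strand for Csn2 and chr14:20439831-20440080, minus strand for Csn3.
Csn1s1: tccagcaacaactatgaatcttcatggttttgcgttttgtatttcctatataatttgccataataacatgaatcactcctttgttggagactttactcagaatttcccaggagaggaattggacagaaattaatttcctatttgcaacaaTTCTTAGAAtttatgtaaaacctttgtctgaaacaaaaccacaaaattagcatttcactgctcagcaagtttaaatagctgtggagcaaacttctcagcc
Csn1s2a: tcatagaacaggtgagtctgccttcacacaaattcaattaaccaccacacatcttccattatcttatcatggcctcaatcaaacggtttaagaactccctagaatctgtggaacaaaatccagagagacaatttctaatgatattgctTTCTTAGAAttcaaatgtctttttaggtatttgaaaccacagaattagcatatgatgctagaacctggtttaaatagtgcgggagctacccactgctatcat
Csn1s2b: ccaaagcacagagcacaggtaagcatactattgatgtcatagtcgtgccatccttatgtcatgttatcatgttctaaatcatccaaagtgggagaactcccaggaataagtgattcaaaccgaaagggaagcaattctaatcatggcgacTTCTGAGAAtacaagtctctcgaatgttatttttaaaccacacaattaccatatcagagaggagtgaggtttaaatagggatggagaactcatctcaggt
Csn2: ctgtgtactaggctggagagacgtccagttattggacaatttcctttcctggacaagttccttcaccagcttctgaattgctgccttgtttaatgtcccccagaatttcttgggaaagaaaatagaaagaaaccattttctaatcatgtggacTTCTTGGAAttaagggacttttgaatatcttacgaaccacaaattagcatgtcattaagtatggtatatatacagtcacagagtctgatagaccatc
Csn3: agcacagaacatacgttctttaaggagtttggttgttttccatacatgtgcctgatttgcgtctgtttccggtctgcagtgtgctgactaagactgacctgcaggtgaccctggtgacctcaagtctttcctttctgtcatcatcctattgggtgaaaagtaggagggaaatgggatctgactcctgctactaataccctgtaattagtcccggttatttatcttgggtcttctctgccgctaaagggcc

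The motif TTCNNNGAA is its own reverse complement, so both strands were searched at once. Counted from the start of transcription, its first base lay 100 bases upstream in Csn1s1 and in Csn1s2b, 102 in Csn1s2a and 97 in Csn2, and the Csn3 window held none. Of the 15 milk protein genes with a promoter in the table, 6 held it (40.0%), the other 2 being Glycam1 and Lao1, against 7.67% of all 33469 promoters. Among genes higher in the high class 5.745% held it, among those lower 5.26%, and among all compared genes 5.94%. A match describes letters only and is no evidence of binding.

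Genes were compared between the classes as a description without a test, because the rule used the same libraries. A gene was counted as higher when all 3 high libraries lay above all 4 low ones and the means differed at least 2-fold on TMM-adjusted CPM, and as lower in the reverse case. Of 11912 genes with a mean of at least 1 CPM, 1327 were higher (11.1%) and 1536 lower (12.9%). Nothing is read from these shares, since the classes were chosen on this contrast. The split moved with the scaling. Genes counted as higher made up 46.4% of those counted on TMM scaling, 36.2% on plain totals (1107 higher, 1950 lower) and 58.3% on totals without milk genes (1626 higher, 1165 lower). The median log2 ratio of all genes moved from 0.01 to -0.18 and 0.21 on those scalings. With SAT_19 put among the low libraries, 896 genes were higher and 493 lower.

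**Figure D1:**
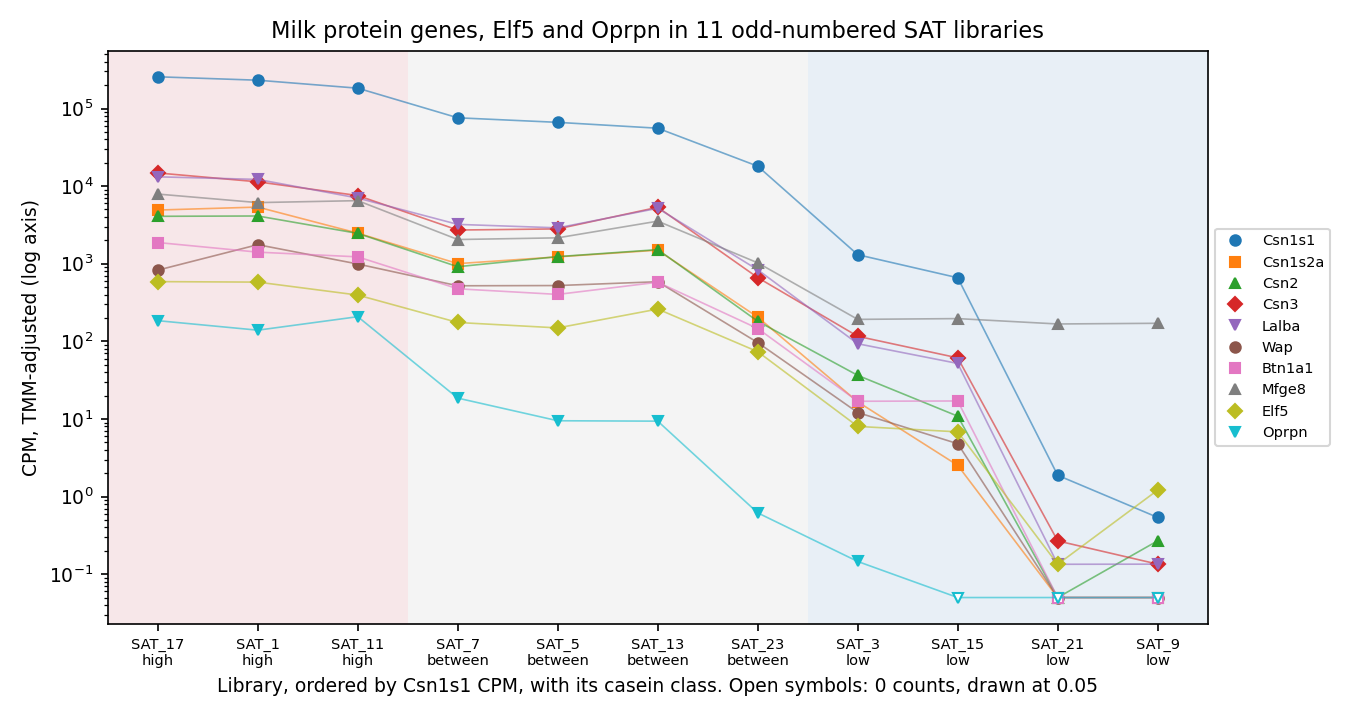
TMM-adjusted CPM (log axis) of 8 milk protein genes, Elf5 and Oprpn in the 11 odd-numbered SAT libraries, ordered by Csn1s1 on plain totals, with the class under each name. The 4 libraries between the thresholds lie between the classes for most of these genes, and the low class divides into SAT_3 and SAT_15 against SAT_21 and SAT_9, whose values are at or near 0 except for Mfge8.

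Milk protein genes were higher as a group. Besides Csn1s1, which the rule used, 15 listed genes were measured. Of these, 14 had a mean of at least 1 CPM, and 13 were higher, with a median log2 ratio of 7.91 against 0.01 over all genes. Csn2, the beta-casein gene, had 4122, 2461 and 4083 CPM in SAT_1, SAT_11 and SAT_17. It had 36.4, 0.269, 10.9 and 0 CPM in SAT_3, SAT_9, SAT_15 and SAT_21. The classes did not overlap, and the means were 3555 ± 948 (SD, n = 3) and 11.9 ± 17.1 CPM (SD, n = 4), a log2 ratio of 8.22. Csn3, the kappa-casein that coats casein micelles, had 11356, 7556 and 14778 CPM against 116, 0.135, 61.2 and 0.268 CPM in the same order of libraries. Csn1s2a, one of a pair of alpha-S2 casein copies, had 5369, 2475 and 4917 CPM against 16.6, 0, 2.53 and 0 CPM, a log2 ratio of 9.80, and its copy Csn1s2b a ratio of 8.58.

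The whey protein genes followed the caseins. Lalba, the alpha-lactalbumin subunit of lactose synthase, had 12203, 7016 and 13177 CPM in the high libraries. In the low ones it had 93.1, 0.135, 51.9 and 0.134 CPM. Wap, the whey acidic protein, had means of 1193 ± 498 and 4.22 ± 5.71 CPM. Btn1a1, the butyrophilin of the milk fat globule membrane, had 1409.9, 1226 and 1876 CPM against 16.9, 0, 17.05 and 0 CPM. Muc15, a mucin of that membrane, had a log2 ratio of 7.83, the bile salt lipase gene Cel 4.66, the amino acid oxidase gene Lao1 8.42 and Wfdc18, a relative of Wap, 4.67. The ratios of Lao1 and Wfdc18 rest on few counts in the low class. Wfdc18 had 4.89, 2.96 and 2.92 CPM against 0.437, 0, 0.126 and 0 CPM, and Lao1 had at most 0.728 CPM in the low class. Mfge8, a globule membrane protein that other cells of fat also make, did not approach 0 in the low class: it had 6132, 6498 and 7898 CPM against 192, 171, 196 and 167 CPM.

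Members of the milk list also differed among themselves. Glycam1, known from milk and from lymph node venules, had 117 CPM in SAT_11 but 4.28 and 2.31 CPM in SAT_1 and SAT_17, and at most 2.04 CPM in the low class. SAT_11 is the high library with lymphocyte genes, and SAT_23, the other library with them, had 194 CPM. Their part in the Glycam1 value was not tested. Lpo, the lactoperoxidase gene, overlapped, with 37.8 to 128 CPM against 12.1 to 40.9 CPM. Ltf, the lactoferrin gene, stayed under 1 CPM in all 7 libraries and was not counted.

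Ratios between milk genes were also taken within a library. Csn2 counts were 1.35 to 1.78% of Csn1s1 counts in the high class, Csn3 4.14 to 5.77%, Lalba 3.84 to 5.27% and Wap 0.323 to 0.760%. In the 4 libraries between the thresholds, the first 3 of these ratios were 1.00 to 2.73%, 3.58 to 9.59% and 4.23 to 9.29%. In the low libraries with enough Csn1s1 counts, SAT_3 and SAT_15, they were 1.65 to 2.79%, 8.89 to 9.28% and 7.13 to 7.87%, those of Csn3 and Lalba lying above the high class. In the even-numbered libraries they were 0.300 to 393%, 10.2 to 48.5% and 0.842 to 646%, both extremes of 393% and 646% being SAT_8. Without SAT_8 the highest were 77.9%, 48.5% and 27.6%. These ratios were chosen after their values were seen.

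Genes of the secretory cell were higher in most cases. Of 21 listed genes counted, 17 were higher and 1 lower, with a median log2 ratio of 3.46. Prlr, the prolactin receptor, had 16.7, 11.7 and 20.8 CPM against 3.50, 0.808, 2.15 and 2.55 CPM. Stat5a had means of 534 ± 103 and 48.6 ± 2.70 CPM, a log2 ratio of 3.46. Stat5b, its close copy, was at 129.6 to 158 CPM against 69.2 to 78.1 CPM, without overlap but under 2-fold. Reads of such near-identical copies can be split by the counting. Xdh and Plin2, which act in the budding of milk fat droplets, had log2 ratios of 1.17 and 3.79. Lcn2, the iron-binding lipocalin 2, had 2228, 534 and 1507 CPM against 18.6, 7.81, 39.0 and 8.58 CPM, and Slc12a2, a chloride cotransporter, a log2 ratio of 4.11. The gene counted as lower was Aldh1a3, an aldehyde dehydrogenase that makes retinoic acid, with a log2 ratio of -1.28.

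The secretory machinery showed another pattern. Of 25 genes of the endoplasmic reticulum and Golgi apparatus, 22 were neither higher nor lower, and the list median was 0.08, which turned to -0.11 on plain totals. The chaperone Calr had means of 698 ± 116 and 496 ± 62.0 CPM, a log2 ratio of 0.49. The translocon gene Sec61a1 had 0.59 and the disulfide isomerase Pdia4 0.41, both with no overlap and under 2-fold. Fam20c, the Golgi kinase that phosphorylates caseins, was among the 2 exceptions that were higher. It had 565, 563 and 831 CPM in the high libraries, 201, 226, 301 and 102 CPM in SAT_5, SAT_7, SAT_13 and SAT_23, and 18.2, 20.1, 17.8 and 23.5 CPM in the low ones. The other exception was Creb3l4, a membrane-bound transcription factor (log2 ratio 4.70), and its relative Creb3l1 was lower (-1.27).

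Luminal epithelial genes were higher in 25 of 29 cases, with a median log2 ratio of 5.12, and 1 was lower. Krt8 had 672, 371 and 671 CPM against 24.9, 8.89, 23.9 and 11.8 CPM. Cd24, a surface protein, had a log2 ratio of 6.31, Ehf, an epithelial transcription factor, 7.17, and Spint2, a protease inhibitor, 3.89. Muc1, the apical mucin, had 118, 132 and 195 CPM against 1.02, 0, 0.505 and 0.134 CPM. The gene counted as lower was Cldn1, a claudin of tight junctions, at 1.38 to 3.87 CPM against 6.57 to 8.35 CPM.

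Basal and myoepithelial genes were higher in 16 of 17 cases, and in 14 on plain totals, with a smaller median log2 ratio of 2.70. Krt14 had 17.4, 17.8 and 21.98 CPM in the high libraries and 1.17, 0.269, 2.90 and 0.536 CPM in the low ones. Krt14, Krt17 and related keratins are near copies, and the split of reads between them is uncertain. Tp63, the transcription factor of basal cells, had 22.6, 11.1 and 24.7 CPM against 3.21, 1.62, 2.27 and 0 CPM. The contractile genes Mylk and Myh11, which smooth muscle of vessels also expresses, had log2 ratios of 1.96 and 1.49, and the integrin Itga6 1.06. Oxtr, the oxytocin receptor through which myoepithelium ejects milk and which adipocytes also express, went the other way. It had 99.8, 61.3 and 156 CPM in the high libraries against 557, 911, 799 and 1155 CPM in the low ones, a log2 ratio of -3.02. It was the list's lower gene. The list sums on plain totals, Oxtr included, overlapped, at 1540 to 1877 CPM in the high class and 1173 to 1620 CPM in the low class.

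The genes of highest ratio were not all on these lists. Among genes with a mean of 10 CPM or more, Oprpn, a proline-rich secreted protein of salivary and lacrimal glands, came first. It had 139, 208 and 185 CPM in the high libraries, 9.48, 18.6, 9.37 and 0.616 CPM in SAT_5, SAT_7, SAT_13 and SAT_23, and 1 count in all 4 low ones together. From 3725 against 1 counts, the ratio was 5311, with a 95% exact interval of 953 to 209800 that covers counting error only. Smr3b, a relative of it in the same gland protein family, had 20.3, 156 and 146 CPM against 2 counts in the low class. Sftpd, the collectin surfactant protein D of mucosal surfaces, had 61.6, 22.03 and 27.7 CPM against 1 count. Pigr, which carries immunoglobulin A into milk, had 588, 447 and 518 CPM against 2.91, 0.269, 1.01 and 0.134 CPM. Transporters made up much of the rest: the water channel Aqp3 (log2 ratio 9.98), the phosphate carrier Slc34a2 (9.39), the dicarboxylate carrier Slc13a2 (9.20) and the glucose carrier Slc5a1 (9.19). The low class held 3 counts each of Slc13a2 and Slc5a1, and their ratios of summed counts were 573 (196 to 2781) and 592 (202 to 2875).

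**Figure D2:**
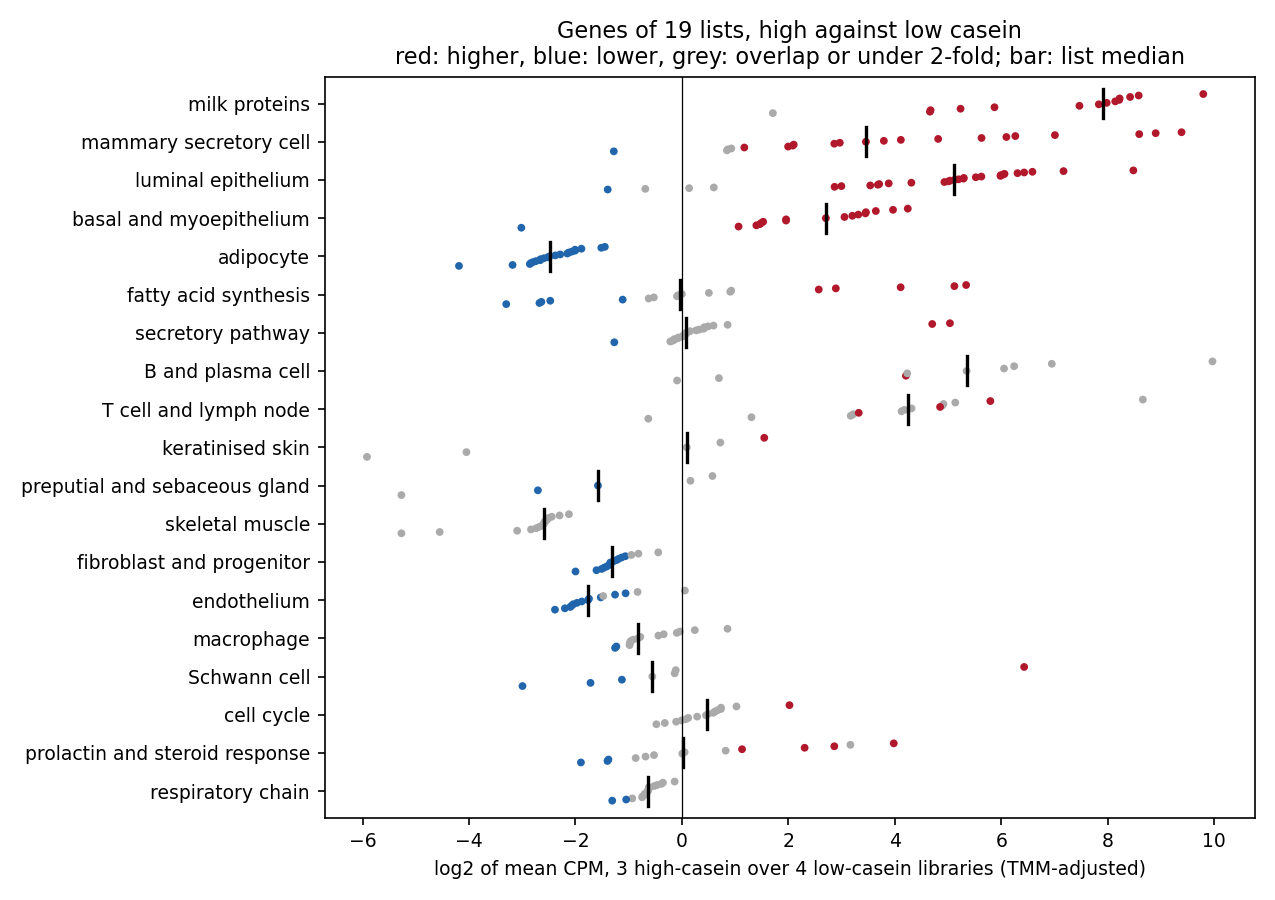
log2 ratio of mean TMM-adjusted CPM, 3 high over 4 low libraries, for each counted gene of 19 lists (points; red higher, blue lower, grey neither) with the list median (bar). Milk protein, secretory, luminal and basal lists lie to the right with medians of 7.91, 3.46, 5.12 and 2.70, the adipocyte list lies to the left at -2.49, and fatty acid synthesis genes fall on both sides.

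Adipocyte genes were lower in all 21 counted cases, with a median log2 ratio of -2.49, and all 21 were also lower on plain totals and on totals without milk genes. Adipoq had 822, 406 and 1032 CPM in the high libraries and 5156, 5068, 5672 and 5928 CPM in the low ones. Lep, the satiety hormone leptin, had 70.2, 17.7 and 70.4 CPM against 519.5, 1051, 1031 and 1243 CPM, a log2 ratio of -4.19. The fatty acid carrier Fabp4 had a log2 ratio of -2.59, the triglyceride lipase Pnpla2 -1.89 and the lipoprotein lipase Lpl, which lactating epithelium also expresses, -1.45. The list summed to 7077 to 11858 CPM in the high class and 45649 to 52143 CPM in the low class. The largest decrease among genes of 10 CPM or more was Pnpla3, a lipid droplet protein, at 5.50, 2.71 and 21.4 CPM against 146, 221, 194 and 328 CPM. The other genes of lowest ratio were Npr3, the clearance receptor for natriuretic peptides (-4.09), Gldn (-3.77), the collagen chain Col5a3 (-3.71), the adipokine Serpina12 (-3.48), Tmem182 (-3.45), Mest, an imprinted gene of adipocyte growth (-3.41), and Sncg, the synuclein of adipocytes (-3.30).

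Fatty acid synthesis, which both adipocytes and secreting mammary cells carry out, divided by gene. Of 18 genes, 5 were higher and 5 lower, with a median of -0.03, and 6 and 4 on totals without milk genes, where the median was 0.16. Fasn, the fatty acid synthase, had 24400.0, 21884 and 37751 CPM in the high libraries and 3673, 3818, 3452 and 7909 CPM in the low ones, a log2 ratio of 2.57. Scd, the stearoyl-CoA desaturase that acts after it, had 606, 301 and 1897 CPM against 8462, 6848, 5815 and 15697 CPM, a log2 ratio of -3.30. Scd counts were thus 1.38 to 5.02% of Fasn counts in the high class and 168 to 230% in the low class. Reads of Scd may be shared with its near copies.

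The other members of the pathway fell on either side in the same way. The desaturases Fads1 and Fads2, which make polyunsaturated fatty acids, had log2 ratios of 4.11 and 5.34, and Fads2 stood at 848, 915 and 1381 CPM against 25.6, 21.1, 26.5 and 30.2 CPM. Acacb had 1514, 1314 and 2413 CPM against 69.1, 46.3, 47.9 and 37.7 CPM. Its cytosolic partner Acaca, which makes the malonyl-CoA for synthesis, had 329, 266 and 437 CPM against 677, 623, 554 and 1123 CPM. Acss2, which activates acetate, was higher (2.89). The elongase Elovl6 (-2.64), the sterol sensor partner Insig1 (-2.68) and the glucose-responsive transcription factor Mlxipl (-2.47) were lower. Thrsp, a lipogenic regulator, was 0.93 without overlap, and Srebf1 -0.00.

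**Figure D3:**
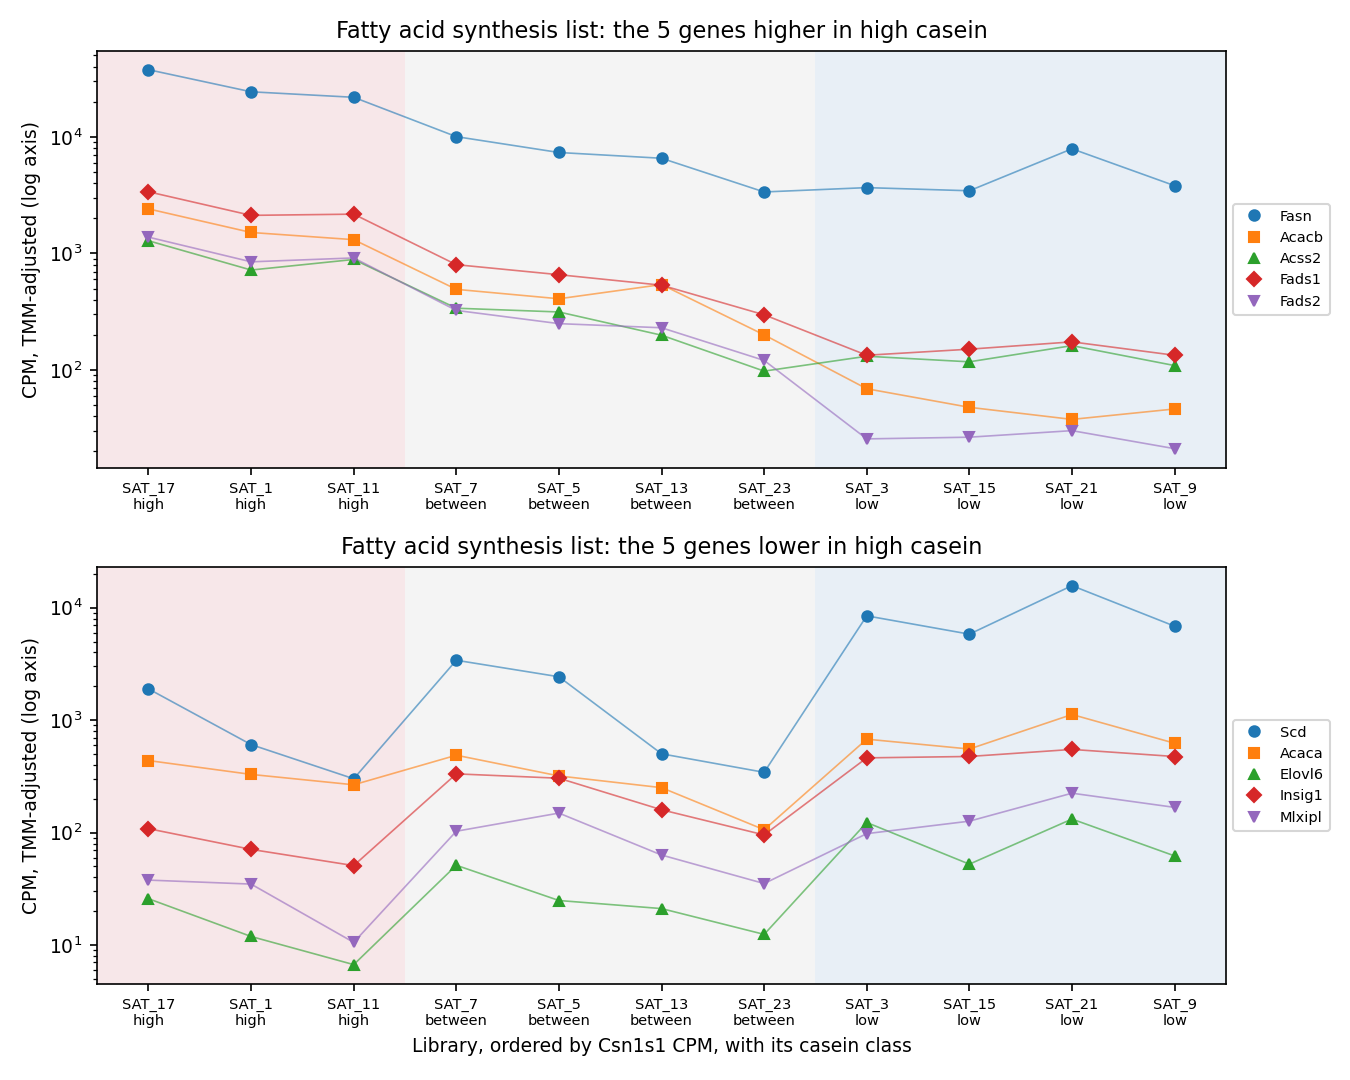
TMM-adjusted CPM (log axis) of the 5 fatty acid synthesis genes counted as higher (top) and the 5 counted as lower (bottom) in the 11 odd-numbered SAT libraries, in order of Csn1s1. Fads2 falls from 1381 CPM in SAT_17 to 21.1 CPM in SAT_9, while Scd is lowest in SAT_11 at 301 CPM and highest in SAT_21 at 15697 CPM.

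Fibroblast and progenitor genes were lower in 13 of 16 cases (median -1.31) and endothelial genes in 12 of 15 (median -1.76). The collagen gene Col1a1 had 6440.2, 10644 and 7648 CPM against 19565, 26162, 11145 and 28289.5 CPM, its partners Col1a2 and Col3a1 had log2 ratios of -1.34 and -1.46, and the matrix protein Sparc -1.999. The endothelial growth factor receptor Kdr had 24.6, 56.3 and 40.9 CPM against 164, 223, 153 and 141 CPM, the cadherin Cdh5 a log2 ratio of -2.04 and Tie1 -1.52, and Pecam1 -0.83. Macrophage genes were lower in 2 of 15 cases, Cd163 and Mrc1 (-1.23), and Csf1r, C1qa and C1qc were within 2-fold (-0.97, -0.96 and -0.98). The macrophage count was 8 of 15 on plain totals.

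Of 7 Schwann cell genes, 3 were lower and 1 higher. S100b, which adipocytes also express, had a log2 ratio of -2.99, Pmp22 -1.72 and Mbp -1.13. Sox10, a transcription factor of neural crest and also of mammary epithelium, went the other way with 296, 274 and 450.2 CPM against 6.12, 2.29, 6.69 and 0.671 CPM. Respiratory chain genes had a median of -0.64, and 2 of 18 were lower, the ATP synthase subunit Atp5f1b (-1.05) and the electron carrier Cycs (-1.31), with Atp5f1a, Cox4i1 and Sdha at -0.46, -0.70 and -0.93.

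Hormone response genes had no common direction. Of 14 counted, 4 were higher and 3 lower, with a median of 0.03, or -0.14 on plain totals. Cish, a feedback inhibitor induced by STAT5, had 105, 133 and 197 CPM against 83.9, 86.0, 73.7 and 21.2 CPM. Another target of the same kind, Socs2, was lower (-1.38). Areg, the growth factor amphiregulin of mammary ducts (3.98), and Wnt4 (2.31) were higher at levels of 7.84 CPM or less, and Igf1 (-1.90) and the oestrogen receptor Esr1 (-1.40) were lower, Tsc22d3 being -0.87. Cell cycle genes were mostly neither, with Aurka as the 1 of 16 counted as higher (2.02) and Pcna at -0.11. Aurka turned to -2.43 with SAT_19 among the low libraries.

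Lymphocyte genes had high medians that rested on SAT_11. For the T cell and lymph node list the median log2 ratio was 4.25 with 3 of 14 higher, the chemokine Ccl21 and the T cell genes Cd3d and Cd5. Without SAT_11 it was -0.17 with 1 of 7 higher. The B and plasma cell list had a median of 5.35 over 9 counted genes with 1 higher. Without SAT_11 it was -0.20 over 2 counted genes with 1 lower. Fewer genes of both lists reached a mean of 1 CPM without SAT_11, so the medians with and without it cover different genes. Cd5 had 36.5 CPM in SAT_11 and 0.917 and 1.38 CPM in the other 2 high libraries. Fcmr and Derl3, the most abundant of the B and plasma cell list, had log2 ratios of -0.09 and 0.70. The list totals of T cell and lymph node genes were 139, 174 and 1108 CPM over the high class and 139 to 209.9 CPM over the low class.

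Skeletal muscle genes rested on other libraries. All 16 overlapped between the classes, with a median of -2.60. Without SAT_21, the low library with Myh4 at 0.536 CPM, 14 of 16 were counted as lower. Myh4, a fast myosin, had 2564, 2026 and 1037 CPM in the other low libraries and 34.7 to 263 CPM in the high ones. Keratinised skin genes were near 0 change, with Krt10 at 0.09 and Sbsn at 0.72, and 1 of 5 was higher. Of the preputial and sebaceous list, 2 of 5 were lower, the wax synthase Awat2 (-2.71) and Hmgcs1 of sterol synthesis (-1.58), and Soat1 was 0.57. The part of muscle, lymphoid and other tissue in the results for other genes was not tested, but the 1327 and 1536 genes became 1426 and 1568 without SAT_11, of which 1252 and 1329 were among those first counted.

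The 4 libraries between the thresholds, which had not entered the contrast, were set beside it. Of the 1327 genes counted as higher, 85.8% in SAT_5, 87.3% in SAT_7, 93.9% in SAT_13 and 76.7% in SAT_23 lay above every low library, against 23.7 to 41.5% of all compared genes. Of the 1536 counted as lower, 46.6%, 59.2%, 88.1% and 89.8% lay below every low library, against 19.1 to 33.6% of all genes. Both shares use the same low libraries as the contrast, which favoured the counted genes over all genes in advance. The rule had also placed these 4 libraries by their Csn1s1, so the shares are a description only. SAT_5 and SAT_7 had the adipocyte genes nearest the low class, with Adipoq at 3762 and 4450.4 CPM, while SAT_23 had 1005 CPM of Adipoq and 73.6 CPM of Elf5. SAT_23 was also the library with the most lymphocyte RNA, at 152 CPM of Cd3e on plain totals.

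**Figure D4:**
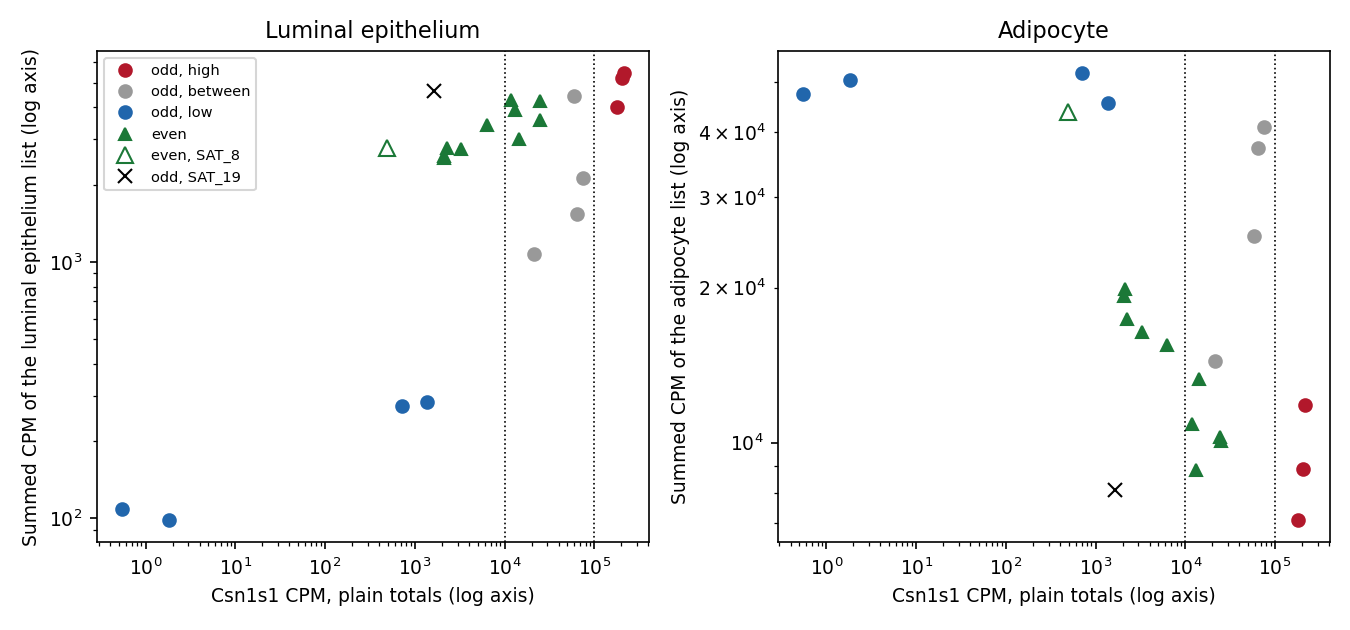
Summed CPM of the luminal epithelium list (left) and of the adipocyte list (right) against Csn1s1 CPM, all on plain totals and log axes, in the 23 SAT libraries; dotted lines mark the thresholds of 10000 and 100000 CPM. Even-numbered libraries have luminal sums of 2530 to 4264 CPM at 492 to 25007 Csn1s1 CPM, while the 4 low odd-numbered libraries have 98.2 to 284 CPM.

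The even-numbered libraries gave a test on rats that the rule did not use. Their Csn1s1 ran from 492 to 25007 CPM, with a median of 6291 CPM, so that none was high. Each gene was regressed on log2 Csn1s1 CPM with treatment in the model, using edgeR's quasi-likelihood test with Benjamini-Hochberg adjustment. A slope is the log2 change per doubling of Csn1s1. At an adjusted p under 0.05, 22 of 12354 genes rose (0.178%) and 74 fell (0.599%), and 3615 had an unadjusted p under 0.05. DESeq2 called 1044 rising and 1367 falling, and edgeR on plain totals 2 and 2. The count also moved with single libraries: it was 85 rising and 127 falling of 12119 without SAT_8, while leaving out any other library gave 0 to 26 rising and 2 to 40 falling. Of the first 22 rising and 74 falling genes, only 18 and 26 were among those called without SAT_8. Without SAT_8 and 1 more library the counts ran from 0 to 668 rising and from 1 to 542 falling.

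The genes that passed in the even-numbered rats were set beside those that separated the classes in the odd-numbered rats. Of the 22 rising genes, 16 (72.7%) were among the 1281 genes counted as higher that were also tested here, which is 1.25% of those. Of 67 falling genes compared in both, 50 (74.6%) were among 1508 counted as lower, which is 3.32% of those, and 1 falling gene was among the 1281. Of all 11760 genes compared in both, 10.9% were counted as higher and 12.8% as lower. Without SAT_8 the numbers were 56 of 84 and 85 of 120, with 3 falling genes among the higher and 1 rising gene among the lower.

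Of the 5 rising genes of smallest p, only Fads2 was on a list. Kcnn4, a calcium-activated potassium channel, rose by 0.32 ± 0.04 (SE) per doubling (adjusted p = 0.0278, edgeR), and by 0.34 without SAT_8. It had 14.5 to 46.7 CPM over the 11 libraries, with its lowest value in SAT_8. Rnf43, an inhibitor of Wnt receptors, had a slope of 0.48, the protocadherin Fat2 0.30 and the GTPase regulator Rap1gap 0.31, each with an adjusted p of 0.0278 by edgeR. Fads2 had a slope of 0.46 (edgeR adjusted p = 0.0278), and ran from 19.6 CPM in SAT_8 to 185 CPM in SAT_6. All 5 were higher in the odd-numbered high class, with log2 ratios of 4.34 to 6.47.

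Slc7a10, an amino acid carrier of white adipocytes, had a slope of -0.39 ± 0.04 (SE) and an adjusted p of 0.00638 by edgeR. It had 388.5 CPM in SAT_8 and 79.8 to 230.6 CPM in the others, with the 5 lowest values in the 5 libraries of highest Csn1s1. The TMM factor of SAT_8 was 0.551, against 1.016 to 1.122 in the other even-numbered libraries. The adjustment thus raised every TMM-adjusted CPM of SAT_8 relative to plain totals, and its part in these values was not tested. Dhrs7, a short-chain reductase, had -0.59 at the same adjusted p, and Arxes1, a gene expressed in adipocytes, -0.52, Aadat, an aminotransferase, -0.54 and Gata2, an inhibitor of adipocyte formation, -0.39, each at 0.0278. Gata2 alone of these was not counted in the odd-numbered contrast (log2 ratio -0.45).

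Of 21 adipocyte genes, 4 fell, Adipoq, Lep, Fabp4 and Cfd, and the median slope was -0.12 against 0.03 over all genes. Adipoq had a slope of -0.42 (edgeR adjusted p = 0.0278), Lep -0.48 (0.0278) and Fabp4 -0.57 (0.0452). Without SAT_8 the slopes were -0.30, -0.32 and -0.25 with adjusted p-values of 0.0244, 0.0497 and 0.0470, and 7 of 21 fell with all 21 slopes negative. Oxtr fell as well, with a slope of -0.37 (adjusted p = 0.0407, edgeR), and -0.47 without SAT_8 (0.0107). S100b had -0.52 (0.0278). When a further library was left out, 0 to 14 of the 21 adipocyte genes fell. On plain totals 0 of 21 fell, with a median slope of -0.03.

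Milk genes themselves did not pass as a rule. None of 13 tested besides Csn1s1 did, with a median slope of 0.32 and 12 slopes above 0. Csn2 had a slope of 0.70 ± 0.42 (adjusted p = 0.277, edgeR): it ranged from 9.25 CPM in SAT_12 to 8779 CPM in SAT_6, and SAT_8 had 3507 CPM with the lowest Csn1s1 of all. Csn3 had 0.80 ± 0.16 (adjusted p = 0.0506, edgeR). Lalba had -0.20 (adjusted p = 0.477, edgeR), with 5761 CPM in SAT_8. Without SAT_8, Csn1s2a (slope 2.24) and Cel (0.58) passed, at adjusted p-values of 0.0124 and 0.0405 by edgeR.

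The epithelial lists gave few calls. Of 29 luminal genes Rab25, a GTPase of epithelial vesicles, rose (slope 0.29, adjusted p = 0.0464, edgeR), and of 21 secretory cell genes Ceacam1, an adhesion molecule (0.28, adjusted p = 0.0392, edgeR). Without SAT_8, 3 luminal genes rose, Krt8, Muc1 and Ap1m2, and Elf5 joined the secretory ones at 0.29 (edgeR adjusted p = 0.0470). With a further library left out, 0 to 6 luminal genes rose, and on plain totals none did. The slope of Krt8 changed from -0.03 to 0.25 and that of Cdh5 from 0.06 to -0.27 on leaving SAT_8 out, each with an adjusted p of 0.0470 by edgeR. No basal gene rose, Krt14 having a slope of -0.03. Fasn and Scd had slopes of 0.20 and -0.26 with adjusted p-values of 0.411 and 0.355 by edgeR, so that their opposite directions in the odd-numbered classes were not shown here. Skeletal muscle genes had a median slope of -1.02 with none of 16 passing. Their sum ran from 47.5 CPM in SAT_22 to 29818 CPM in SAT_18, and its part in the slopes was not tested.

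**Figure D5:**
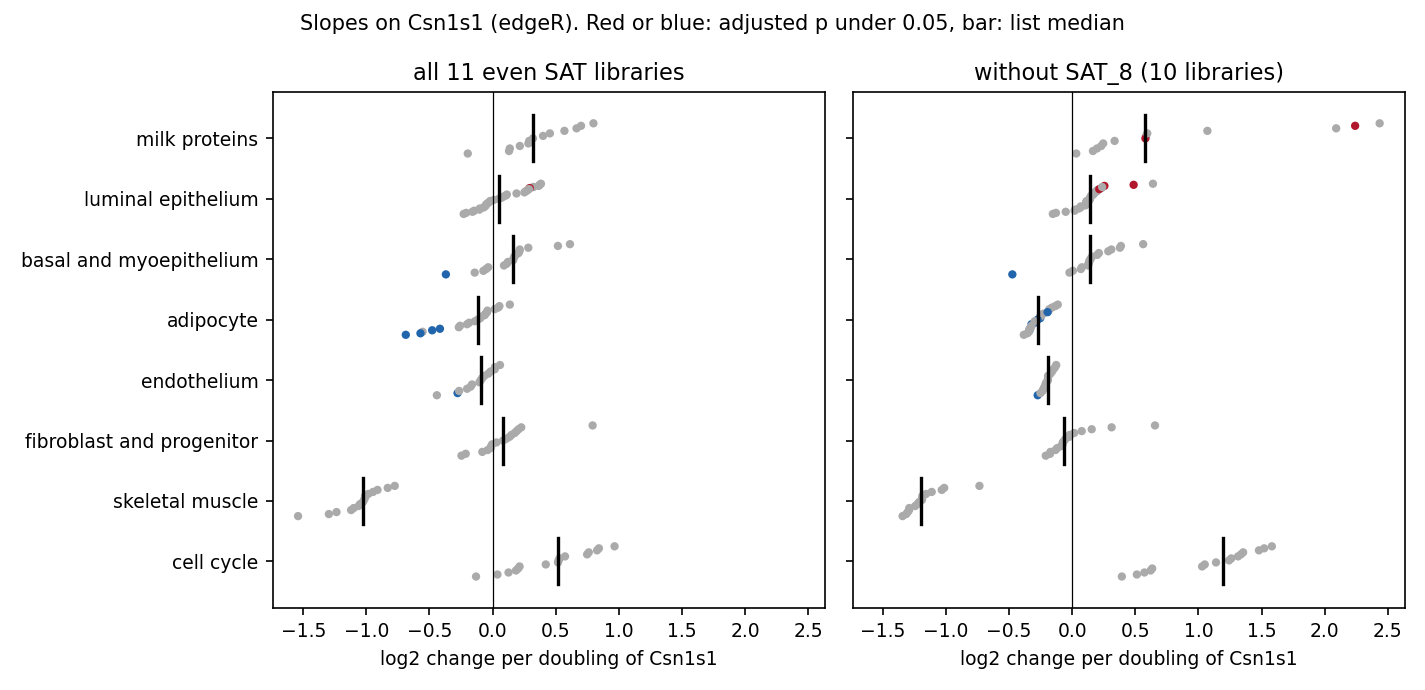
Slopes on Csn1s1 (log2 change per doubling) in the even-numbered SAT libraries for genes of 8 lists, with all 11 libraries (left) and without SAT_8 (right); red and blue points passed an adjusted p of 0.05, bars are list medians. The adipocyte median moves from -0.12 to -0.27 and the luminal one from 0.05 to 0.14 without SAT_8.

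PCB 52 exposure and the casein classes were compared next, since the rule did not use treatment. In the 12 odd-numbered libraries the mean of log2(CPM + 1) of Csn1s1 was lower by 1.46 in PCB 52 rats, with an exact two-sided permutation p of 0.649 over 924 assignments. The groups overlapped: sham libraries spanned 0.548 to 205879 CPM, and PCB 52 libraries 1.85 to 213614 CPM. Without SAT_19 the difference was -1.27 (exact permutation p = 0.714). It turned to 0.56 (exact permutation p = 0.905) without the PCB 52 library SAT_21. In the even-numbered libraries it was 0.18 (exact permutation p = 0.870), and the difference between the odd and even effects was -1.64 (permutation p = 0.652). Each of these 3 p-values was 0.870 after Benjamini-Hochberg adjustment. The split of the classes by treatment gave a Fisher's exact p of 1.0. With these numbers, no difference of Csn1s1 by treatment larger than the spread between rats was detected.

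The brown (BAT) and visceral (VAT) fat of the same rats was compared by the SAT class, to see whether the classes differed outside the depot. Csn1s1 itself was at most 0.301 CPM in BAT and 1.67 CPM in VAT. With treatment in the model, 0 of 10925 genes (0%) passed in BAT (3 against 4 rats) and 0 of 11495 (0%) in VAT (3 against 3, the VAT of rat 21 not being analysed here) by edgeR at an adjusted p under 0.05. Unadjusted p-values under 0.05 were found for 404 and 585 genes, and DESeq2 called 0 and 15. Without the BAT library of rat 15, 211 genes passed, and without the VAT library of rat 11, 1 did. In simulated data of these sizes with a log2 change of 2, 94.5% and 83.5% of 200 changed genes were found in BAT and VAT. There, 10 and 18 unchanged genes were also called. Each gene was drawn independently, so these shares cover neither variation shared by the genes of a library nor smaller changes. They do not show that the classes were alike in BAT and VAT.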

How the data were processed

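RNA-seq libraries were prepared from portions of fat lysed in TRIzol and cleaned on RNeasy columns, per the labels' protocols, which give mRNA enrichment as poly(A) capture or rRNA depletion without saying which. The deposited values were raw counts of reads by gene number. The VAT table of the even-numbered rats was handled as estimated counts as deposited, because summary lines under its genes are not whole, and these lines were left out. The submitters' processing notes name FastQC, HISAT2 and genome build rn6. No source used here gives the counting program, its strand setting or its treatment of reads shared between copies, so overlapping, antisense and near-identical genes are uncertain. Of 15319 gene rows, 15230 gene numbers matched a RefSeq symbol; 5 lines that named no gene or repeated one were left out.

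Libraries were classed by Csn1s1 CPM on the plain column total. Values in the text are CPM on TMM-adjusted library sizes (edgeR 4.0.16, R 4.3.3) except Csn1s1 levels that set a class, sums of lists, and marker levels said to be on plain totals, among them those of SAT_19. A mean of 0 was set to a floor of 3 counts. Slopes in the even-numbered libraries and the BAT and VAT comparisons used edgeR's quasi-likelihood test after filterByExpr, with Benjamini-Hochberg adjustment. Alternatives were DESeq2 1.42.0, limma 3.58.1 voom, other scalings and filters, and leaving out libraries. Tests were tried on simulated counts with 200 changed genes: a slope of 1 was found in 93.5% and one of 0.5 in 69.5%. In these runs 12 and 8 unchanged genes were also called. In simulated high and low classes, the count rule also counted 56 unchanged genes among 11626 genes. Each gene was again drawn independently, so these shares cover neither variation shared by the genes of a library nor a library such as SAT_8. No pair of the 55 library pairs compared was alike within sampling noise.

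The members and the 19 gene lists (318 of 341 genes found) were chosen with earlier results of these data known, and no pattern here is independent support for them. The text names every milk gene, up to 4 non-overlapping genes of highest mean CPM of each other list (or the 2 of highest mean CPM where under 2 did not overlap), the 10 of highest and 10 of lowest ratio at 10 CPM or more, and the 5 rising and 5 falling genes of smallest p. Further genes, among them the exceptions of a list and the cell type markers, were named after their values were seen. Promoters are RefSeq windows on GRCr8, another build than that of the counts, matched by gene.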

Additional observations from a re-analysis of the deposited data

Results flagged for a closer look

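In groups of 5 or 6 SAT libraries, the highest or lowest library was compared with the gap to its neighbours for each marker, on CPM of plain totals. Of 76 combinations of marker and group, 15 had a library that stood apart. The threshold (Dixon's) is built so that chance passes it in about 1 in 20 groups of normally distributed values, and several markers here were near 0 and skewed.

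Among the odd-numbered PCB 52 rats, SAT_17 stood apart for Csn1s1 at 213614 CPM, with the others at 58922 CPM or less. SAT_19 stood apart for the basal genes Krt5 (444 CPM), Krt14 (2163 CPM) and Tp63 (142 CPM), and for Mup4, a major urinary protein gene (51789 CPM). SAT_23 stood apart for the T cell gene Cd3e at 152 CPM and the B cell gene Ms4a1 at 114 CPM, with the others at most 1.45 and 0.660 CPM.

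Among the odd-numbered sham rats, the high library SAT_11 had 45.8 CPM of Cd3e and 60.1 CPM of Ms4a1, against at most 1.495 and 1.26 CPM. SAT_7 had 1.51 CPM of Mup4, which is a few counts.

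Of the even-numbered libraries, SAT_8 had 5.00 CPM of Krt1 and 37.7 CPM of Krt10, keratins of differentiated epidermis, against at most 0.716 and 8.45 CPM. SAT_18 had 3567 CPM of the muscle kinase Ckm and 6813 CPM of the muscle actin Acta1, against at most 248 and 586 CPM. SAT_14 had 0.741 CPM of Ms4a1, near the floor.

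In a depot outside the rule, Csn1s1 had 1.67 CPM in the VAT of rat 19, a PCB 52 rat, above the highest sham VAT library at 0.463 CPM.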

How the results depend on the processing

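The counts of genes higher and lower stayed within 1.5 times of their values over the scalings, filters, sham libraries alone and left-out libraries, except that a log2 ratio of 2 left 724 higher and 377 lower and that SAT_19 among the low libraries left 493 lower. The log2 ratio of Aurka turned to -2.43 in that last setting. Rising and falling counts in the even-numbered libraries moved with nearly every choice. They were 1044 and 1367 by DESeq2, 10 and 31 by limma voom, 2 and 2 on plain totals, 46 and 151 with DESeq2 size factors, 287 and 1073 without the treatment term, 1 and 1 with Csn2 in place of Csn1s1 (neither casein counted), and 85 and 127 without SAT_8. Leaving out 1 library gave 0 to 85 rising and 2 to 127 falling, and a further one after SAT_8 gave 0 to 668 and 1 to 542 (chosen after seeing the data). The cause was not tested. Slopes of Krt8 ran from -0.058 to 0.25 and of Cdh5 from -0.27 to 0.22 with 1 library left out, both ends away from the main sign being without SAT_8. In BAT 0 to 211 genes passed with 1 library left out, and in VAT 0 to 1, with 15 by DESeq2. The PCB 52 minus sham difference of Csn1s1 ran from -3.94 to 0.56. No paired analysis was possible because the casein classes and the treatment groups hold different rats. At 6506450 to 8381507 counts a SAT library, a gene under 1 CPM rests on few counts.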

Other observations

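In the even-numbered rats, cell cycle genes stood high in 3 of the 5 libraries of highest Csn1s1. Their sum on plain totals was 2552, 1522 and 1167 CPM in SAT_2, SAT_22 and SAT_14, but 291 and 255 CPM in SAT_10 and SAT_6, and 239.7 to 571 CPM in the other 6. All 16 listed genes had slopes above 0 without SAT_8 (median 1.19) and 15 with it (median 0.52), none passing, against medians of -0.00 and 0.03 over all genes. Mki67, the proliferation antigen Ki-67, had 358 CPM in SAT_2, 245 CPM in SAT_22 and 113 CPM in SAT_14, and 5.24 to 75.6 CPM in the other 8 libraries. In the odd-numbered high libraries it had 24.1, 42.4 and 24.7 CPM, against 13.01 to 28.4 CPM in the low ones, which overlap.

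Tnfsf11, the ligand RANKL that progesterone induces in mammary epithelium, had 74.3 CPM in SAT_2, 66.6 CPM in SAT_14 and 5.12 CPM in SAT_10, and under 1 CPM in the other 8. Its slope of 2.35 had an adjusted p of 0.0573 by edgeR. In the odd-numbered rats it had 10.3 CPM in SAT_11 and 20.5 CPM in SAT_23, the libraries with lymphocyte genes, and at most 0.615 CPM elsewhere in the high, low and between libraries. Both genes were named after their values were seen.

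Basal and luminal keratin counts were set side by side within a library. Krt14 counts were 8.77 to 14.1% of Krt18 counts in the high libraries, 11.6 to 22.1% in the 4 between the thresholds and 33.0 to 59.1% in the even-numbered ones. Krt5 per Krt18 overlapped, at 15.3 to 29.5%, 16.2 to 59.2% and 43.1 to 103%. No ratio was formed in the low libraries, where Krt18 had 0 to 85 counts, nor in SAT_19, with 14533 counts of Krt14 and 6 of Krt18. These are descriptions of ratios chosen after seeing the values.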
